A study of Mus musculus with 14 samples.

Results

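Genes that work in mitosis were followed across mouse gastric tumours that had been transplanted under the skin or into the stomach. The set holds 48 genes of chromosome condensation, the spindle checkpoint, the kinetochore, the spindle and cytokinesis. They were chosen by symbol for their known role, and 48 of the 24421 gene entries of the deposited tables are theirs. PolyA RNA was sequenced in bulk from about 1 cm3 of tumour tissue, taken 2 months after transplantation. The 12 libraries form 4 groups of 3: TM, TMP and TMPC tumours grown under the skin, and TMPC tumours grown orthotopically, that is in the organ of origin. TM, TMP and TMPC are the names the labels give the tumours, and the labels do not spell out the alleles behind them. Host strain, age and sex, the driver of any transgene and whether a tumour line is 1 clone are likewise not given. Single-cell samples of the same series were not analysed here. No label ties the replicates of a group to different animals, so the p-values measure the spread of these libraries alone, and that spread may be technical.

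In a dividing cell, condensin and topoisomerase II fold and untangle the copied chromosomes, while the kinase Cdk1 with its cyclins drives the cell into mitosis. Kinetochores assemble on the centromeres and bind spindle fibres, and the spindle checkpoint holds back the anaphase-promoting complex, a ubiquitin ligase, until every chromosome is attached. Many of these genes are transcribed mainly in G2 and M phase, under the control of the DREAM and MuvB complexes, B-Myb and FoxM1, so their RNA level in bulk tissue is often read as a measure of proliferation. In bulk libraries fewer dividing cells and less RNA per dividing cell cannot be told apart.

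The libraries held 16584781 to 21107310 counts. Each member was counted in every library, the lowest count being 23 for Cenpk, and all 48 passed the filter on low counts in every fit. Levels are given as CPM, the count of a gene relative to the library's total, scaled with edgeR's TMM factors over the 12 libraries. Some libraries stood apart from their group by markers of other cell types. In TM replicate 2 the summed level of 6 epithelial markers, such as Epcam, was 223 CPM, against 3929 and 4221 CPM in TM replicates 1 and 3. The same library held 3585 CPM of 5 adipocyte markers, against 17.7 and 18.8 CPM in the other TM libraries, and its sum of 6 leukocyte markers was 2228 CPM, against 836 and 949 CPM. Its level of the plasma cell gene Jchain was 2097 CPM, against 1.76 and 5.63 CPM. Endothelial markers summed to 625 CPM there, against 209 and 184 CPM, and fibroblast markers to 3327 CPM, against 12624 and 15783 CPM. Subcutaneous TMPC replicate 1 had 969 CPM of the epithelial markers, against 2322 and 3182 CPM in its group. Orthotopic replicate 3 held 7265 CPM of 5 hepatocyte markers, against 42.6 and 48.3 CPM in the other orthotopic libraries. The 6 gastric epithelium markers summed to 3700 to 6197 CPM in orthotopic libraries but to 0.0535 to 26.3 CPM in subcutaneous ones, where Gkn2 and Cldn18 had 0 counts in every TMP and TMPC library. The RNA Xist, made from the inactive X chromosome, stood at 191 to 1388 CPM in TM tumours and at 0.107 to 13.5 CPM elsewhere. The Y-linked Ddx3y had 32.8, 0 and 43.8 CPM in TM replicates 1, 2 and 3 and 15.1 to 110.1 CPM in the other groups.

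The mitotic genes were low in TM tumours, high in subcutaneous TMP and TMPC tumours and low again in orthotopic TMPC tumours. Summed over the 48 genes, they made up 1650, 1090 and 1512 CPM in the TM libraries and 5701, 5105 and 4977 CPM in the TMP libraries. The sums were 6946, 6854 and 6165 CPM in subcutaneous TMPC tumours and 1973, 2081 and 2988 CPM in orthotopic TMPC tumours. The ranges of the 4 groups did not overlap, and the mean sums were 1417 ± 292 (TM), 5261 ± 387 (TMP), 6655 ± 427 (subcutaneous TMPC) and 2348 ± 557 CPM (orthotopic TMPC; SD, n = 3 each). In TM and orthotopic tumours most members moved with their library. TM replicate 2 had the lowest level of its group for 41 of the 48 genes, against 46.6% of all genes tested. Orthotopic replicate 3 had the highest of its group for 44 members, against 41.7% of all genes. In subcutaneous TMPC tumours replicate 3 was lowest for 32 members (32.7% of all genes). Replicate 1 was highest for 24 (40.0%) but lowest for 14 (36.2%), so the members did not move together there. These are the libraries whose marker sums stood apart, except subcutaneous TMPC replicate 3, and the part of other cell types in the members' levels was not tested.

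**Figure D1:**
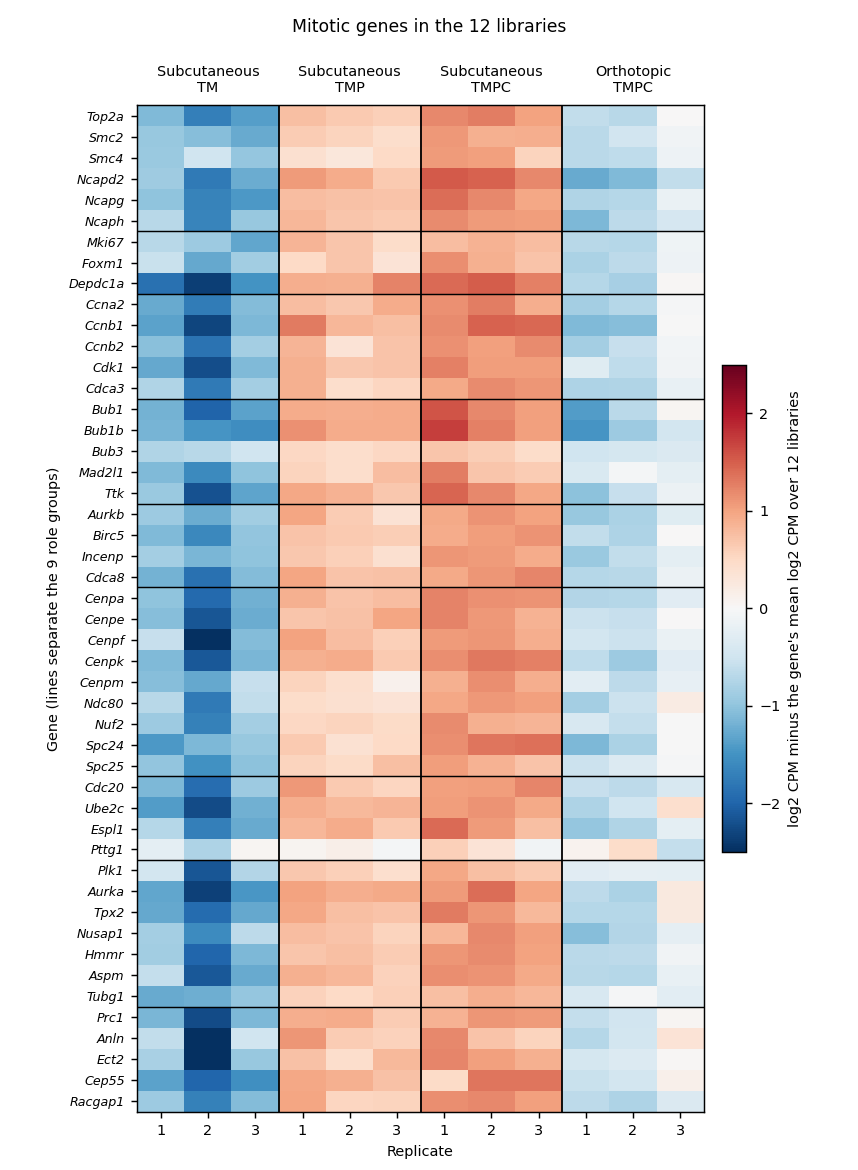
Level of the 48 mitotic genes (rows, by role) in each of the 12 libraries (columns), as log2 CPM minus the gene's mean log2 CPM over all libraries. Blue fills most of the TM columns, mostly darkest in replicate 2, red the subcutaneous TMP and TMPC columns, and pale blue most of the orthotopic columns. Replicate 3 is the palest of these, with some genes, such as Ube2c, pale red, while the row of Pttg1 stays pale throughout.

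Per kilobase of exon, the scale on which genes can be set beside each other, the order of the members had the same top and bottom in each group. Cdc20, the activator of the anaphase-promoting complex, ranked highest of the 48 in all 4 groups, at 18.5 ± 6.11 CPM per kilobase in TM, 75.9 ± 15.7 in TMP, 94.0 ± 7.12 in subcutaneous TMPC and 30.2 ± 2.81 in orthotopic TMPC tumours (SD, n = 3). Cenpk, a subunit of the inner kinetochore, ranked lowest in all 4 groups, at 0.49 ± 0.171, 2.28 ± 0.24, 3.04 ± 0.168 and 0.855 ± 0.19 CPM per kilobase. Pttg1, which encodes securin, the inhibitor of separase, changed place most plainly. It ranked 22 of 48 in TM tumours at 6.19 ± 1.71 CPM per kilobase, 41 in TMP tumours at 7.83 ± 0.521, 43 in subcutaneous TMPC tumours at 9.35 ± 2.15 and 27 in orthotopic ones at 7.78 ± 2.73. No other member's rank spanned as many places, and the values of Pttg1 overlapped between all groups.

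Genes that peak in G2 and M phase often carry a cell cycle genes homology region, written TTTGAA or TTCGAA, close to their start, and CCAAT boxes, bound by NF-Y, upstream of it. The promoters of the members were read for both. RefSeq promoter windows of GRCm38.p6, each 300 bases from 250 before to 50 after a gene's start, were found for 40 of the 48 members. Of these 40 genes 31 (77.5%) held TTTGAA or TTCGAA on either strand, against 21.7% of the 27025 genes of the table. With the match starting between 60 bases before and 30 after the start, a window chosen after the matches were seen, the shares were 65% of members (26 of 40) and 6.07% of all genes. CCAAT on either strand was in 77.5% of members and 41.1% of all genes, and 2 or more matches of it in 55% and 13.3%. A match of each kind, with the first near the start, was in 57.5% of members and 2.61% of all genes. The motifs do not contain each other but may overlap by an end base, and a match is a description of letters, not evidence of binding.

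Of each printed window 150 bases before and 30 after the start are shown, 5′ to 3′ along the gene. Capitals mark each CCAAT, or ATTGG where it lies on the other strand, and each TTTGAA or TTCGAA, or TTCAAA on the other strand, that starts within 60 bases before and 30 after the start. The first 6 were chosen as members of different roles that carry both kinds. Ncapd2 was added as the member that fell furthest in orthotopic tumours, and Pttg1 as the only member that passed in no comparison. Positions are counted from the RefSeq start, and of the 46 windows of these genes 14 have a RefSeq start over 30 bases from the start of the gene in GENCODE vM21. For 37 of the 46 windows the bases just after the RefSeq start occur in a GENCODE transcript of the gene. The windows lie at chr11:99024160-99024339 on the minus strand for Top2a, chr9:70421525-70421704 on the minus strand for Ccnb2, chr2:127831830-127832009 on the minus strand for Bub1, chr4:124936888-124937067 on the minus strand for Cdca8, chr4:118437314-118437493 on the minus strand for Cdc20, chr3:159495283-159495462 on the plus strand for Depdc1a, chr6:125191557-125191736 on the minus strand for Ncapd2 and chr11:43425952-43426131 on the minus strand for Pttg1.
Top2a: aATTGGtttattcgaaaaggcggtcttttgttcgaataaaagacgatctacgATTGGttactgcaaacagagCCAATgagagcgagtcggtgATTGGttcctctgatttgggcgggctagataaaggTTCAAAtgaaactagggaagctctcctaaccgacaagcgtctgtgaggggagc
Ccnb2: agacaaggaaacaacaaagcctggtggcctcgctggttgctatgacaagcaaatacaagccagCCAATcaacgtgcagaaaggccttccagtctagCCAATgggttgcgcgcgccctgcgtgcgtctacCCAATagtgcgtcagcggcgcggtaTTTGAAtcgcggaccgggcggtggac
Bub1: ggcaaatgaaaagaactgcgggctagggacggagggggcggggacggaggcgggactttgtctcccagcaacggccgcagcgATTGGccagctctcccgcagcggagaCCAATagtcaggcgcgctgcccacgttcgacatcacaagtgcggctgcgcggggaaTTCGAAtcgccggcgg
Cdca8: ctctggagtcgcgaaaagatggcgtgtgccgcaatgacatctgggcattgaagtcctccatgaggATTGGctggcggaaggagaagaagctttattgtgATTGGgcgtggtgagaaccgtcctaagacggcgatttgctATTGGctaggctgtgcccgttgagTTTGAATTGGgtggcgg
Cdc20: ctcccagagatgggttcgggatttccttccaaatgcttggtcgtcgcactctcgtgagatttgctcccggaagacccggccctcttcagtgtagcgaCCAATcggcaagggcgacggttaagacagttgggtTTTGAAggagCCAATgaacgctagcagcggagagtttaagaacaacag
Depdc1a: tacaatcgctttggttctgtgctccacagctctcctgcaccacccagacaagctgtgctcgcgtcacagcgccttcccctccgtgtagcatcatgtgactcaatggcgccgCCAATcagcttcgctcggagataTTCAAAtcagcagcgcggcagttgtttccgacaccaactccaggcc
Ncapd2: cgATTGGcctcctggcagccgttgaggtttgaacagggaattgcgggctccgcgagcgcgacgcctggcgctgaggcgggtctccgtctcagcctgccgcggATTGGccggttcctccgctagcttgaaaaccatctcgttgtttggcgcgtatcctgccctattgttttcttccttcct
Pttg1: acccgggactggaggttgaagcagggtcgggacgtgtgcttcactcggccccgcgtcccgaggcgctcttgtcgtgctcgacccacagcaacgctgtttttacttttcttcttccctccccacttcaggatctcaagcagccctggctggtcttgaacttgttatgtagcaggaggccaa

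In Top2a the near-start element began 23 bases before the start, in Cdc20 18 bases before, and in Ccnb2 4 bases after it, and a CCAAT match lay 54 bases before the start in Ccnb2 and 53 in Cdc20. The printed stretch of Pttg1 held neither motif, but it lies wholly inside the gene as GENCODE draws it, whose start is 270 bases upstream of the RefSeq start, so the bases upstream of that start were not read. Ncapd2 has CCAAT and, in lower case, a TTTGAA that begins 123 bases before the RefSeq start but 8 bases before the GENCODE start. For Cdca8 the GENCODE start lies 2394 bases upstream of the RefSeq start, and for the other 5 genes the starts are at most 9 bases apart. Top2a also has matches of the same kind farther upstream, left in lower case. The fold changes were also set beside the near-start element as counted from the RefSeq start. This split cannot decide the element's part. Among the 14 members whose window lacks it there, Aurka and Ncapd2 have a match 3 and 8 bases before the GENCODE start. In TMP against TM the median log2 fold change was 1.97 for the 26 members with it, 1.81 for the 14 whose window lacks it and 1.63 for the 8 with no window in the table. In orthotopic against subcutaneous TMPC the medians were -1.49, -1.41 and -1.45.

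TMP and TMPC tumours were compared with TM tumours under the skin to see how the mitotic genes differ between these kinds of tumour. In TMP tumours 47 of the 48 members rose by edgeR's quasi-likelihood test (Benjamini-Hochberg adjusted p under 0.05 over all 15277 genes tested), where 14.3% of all genes rose. The median log2 fold change was 1.91 over the members, a 3.76-fold difference, and -0.07 over all genes. In TMPC tumours 47 members rose too, where 18.0% of all genes did, with a median of 2.26 over the members (4.79-fold) and -0.07 over all genes. No member fell in either comparison. Members with a log2 fold change of 2 or more numbered 20 in TMP tumours (2.98% of all genes) and 33 in TMPC tumours (3.81%). The comparisons share the TM libraries, so their likeness is partly built in and their values are given side by side. For 47 members every TMP library lay above every TM library (27.5% of all genes) and for 47 every TMPC library did (26.1%). Without TM replicate 2, the library low in epithelial markers, 47 members rose in each comparison and the medians were 1.69 and 2.07. In those fits 31.2% and 40.8% of all genes passed in either direction. Beside these differences the 6 leukocyte markers, none of them at 0 counts throughout the TM or TMP libraries and only Cd3e so in subcutaneous TMPC, summed to 836 to 2228 CPM in TM, 98.3 to 240.0 CPM in TMP and 99.4 to 175 CPM in subcutaneous TMPC tumours, and their part in the result was not tested.

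**Figure D2:**
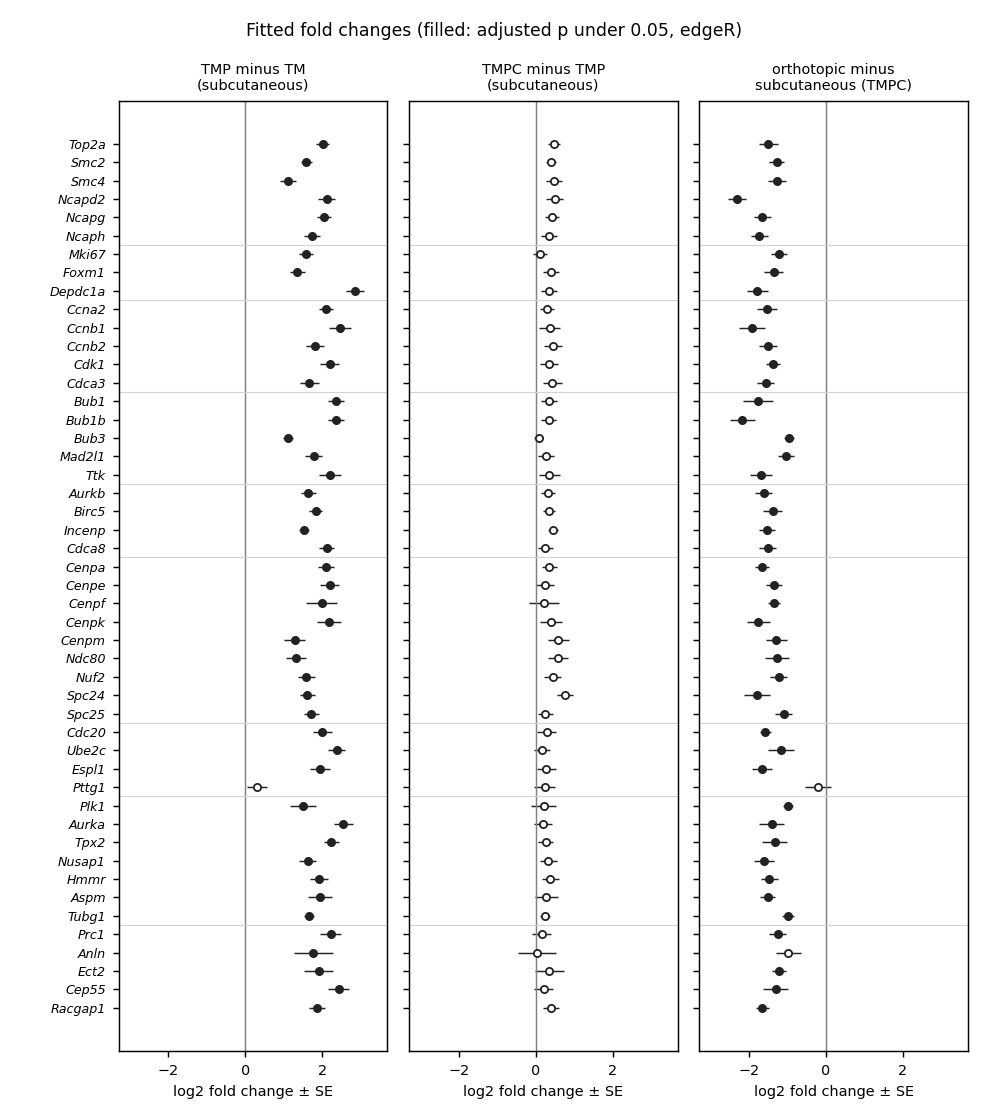
Fitted log2 fold change with its SE (horizontal axis) for each of the 48 genes (rows, by role) in 3 comparisons; filled points passed edgeR's adjusted p threshold of 0.05. Filled points lie right of 0 for 47 genes in TMP minus TM, no point is filled in TMPC minus TMP although all lie right of 0, and 46 filled points lie left of 0 in orthotopic minus subcutaneous TMPC.

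All 6 genes of chromosome structure rose in both comparisons with TM. Top2a, the topoisomerase that untangles sister chromosomes (chromosome 11, 98992943 to 99024189), had 135, 89.1 and 111 CPM in TM, 493, 456 and 441 CPM in TMP and 671, 708 and 587 CPM in subcutaneous TMPC tumours. The 3 groups did not overlap. Its log2 fold change against TM was 2.02 ± 0.17 (SE) in TMP (edgeR adjusted p = 0.00128) and 2.49 ± 0.17 in TMPC tumours (adjusted p = 0.000537). Smc4, an ATPase subunit shared by both condensins, rose least of the group, by 1.12 ± 0.21 (adjusted p = 0.00936) and 1.60 ± 0.21 (adjusted p = 0.0018). It had 76.6, 103 and 74.4 CPM in TM and 191, 176 and 205 CPM in TMP libraries. Here TM replicate 2 was the highest of its group, the only member for which that held. The condensin I subunits Ncapd2, Ncapg and Ncaph ranged from 11.1 to 61.5 CPM over the TM libraries and from 57.8 to 239 CPM over the TMP libraries, with no overlap for any of the 3 genes.

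The proliferation marker Mki67 and the transcription factor gene Foxm1 rose in both comparisons, as did Depdc1a, a gene whose product works in mitosis. Depdc1a had the largest fold changes of all members, 2.85 ± 0.23 in TMP (adjusted p = 0.00128) and 3.20 ± 0.23 in TMPC tumours (adjusted p = 0.000537). Its levels were 6.07, 4.34 and 7.87 CPM in TM, 41.7, 41.0 and 52.3 CPM in TMP and 58.9, 62.9 and 53.3 CPM in TMPC libraries. Its count is uncertain, since 51.7% of the 100-base runs of its transcripts also occur in transcripts of the locus Gm5596. Foxm1, a driver of G2 and M phase transcription, had 28.4, 17.1 and 22.9 CPM in TM and 59.0, 67.2 and 52.8 CPM in TMP tumours. It rose by 1.36 ± 0.20 (adjusted p = 0.00443) and, in TMPC tumours, by 1.75 ± 0.21 (adjusted p = 0.00113). Mki67 stood at 176, 152 and 116 CPM in TM tumours and between 391 and 525 CPM in the 6 TMP and TMPC libraries.

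Cdk1 and the mitotic cyclins rose together, all 5 genes of the group in both comparisons. Ccnb1, cyclin B1, the partner of Cdk1 at entry into mitosis (chromosome 13, 100778650 to 100786570), had 34.3, 17.6 and 39.6 CPM in TM, 212, 153 and 146 CPM in TMP and 195, 239 and 232 CPM in TMPC libraries. TMP and TMPC overlapped each other but not TM. It rose by 2.46 ± 0.29 (adjusted p = 0.00218) and 2.82 ± 0.29 (adjusted p = 0.000755), although 14.9% of its 100-base runs occur also in pseudogene copies such as Ccnb1-ps. Ccna2, cyclin A2, had the smallest p of the group, with 33.5, 23.7 and 37.6 CPM in TM and 136, 127 and 153 CPM in TMP tumours and fold changes of 2.10 ± 0.18 (adjusted p = 0.00128) and 2.40 ± 0.18 (adjusted p = 0.000537). Cdca3, which promotes the breakdown of the mitosis inhibitor Wee1, rose by 1.66 ± 0.25 (adjusted p = 0.00451) and 2.09 ± 0.25 (adjusted p = 0.00128). Cdk1 itself stood at 34.9, 18.2 and 39.4 CPM in TM and between 136 and 205 CPM in the other subcutaneous libraries.

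The spindle checkpoint genes rose by different amounts. Bub1b, which encodes the checkpoint protein BubR1 (chromosome 2, 118598211 to 118641591), had 35.1, 28.4 and 26.9 CPM in TM, 175, 151 and 150.2 CPM in TMP and 262, 189 and 161 CPM in TMPC tumours. It rose by 2.36 ± 0.21 (adjusted p = 0.00128) and 2.70 ± 0.21 (adjusted p = 0.000537). Bub1, the kinase that recruits other checkpoint proteins to kinetochores, was at 80.4, 79.6 and 80.6 CPM in the TMP libraries, the tightest group of any member, against 18.6, 10.7 and 16.7 CPM in TM, and rose by 2.70 ± 0.22 in TMPC tumours (adjusted p = 0.00054). Bub3, the adaptor that binds both Bub1 and BubR1, stood apart from its partners at 71.1, 73.6 and 84.2 CPM in TM and 171, 163 and 172 CPM in TMP tumours. Its log2 fold change of 1.10 was the smallest of the 47 that passed in TMP against TM, a gene singled out after its values were seen. Ttk, the kinase Mps1, which starts checkpoint signalling, rose by 2.21 ± 0.29 (adjusted p = 0.00296) and 2.56 ± 0.30 (adjusted p = 0.00108). Mad2l1, which encodes the Cdc20 inhibitor Mad2, had 26.2, 18.7 and 28.1 CPM in TM and 83.4, 77.0 and 95.8 CPM in TMP tumours.

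**Figure D3:**
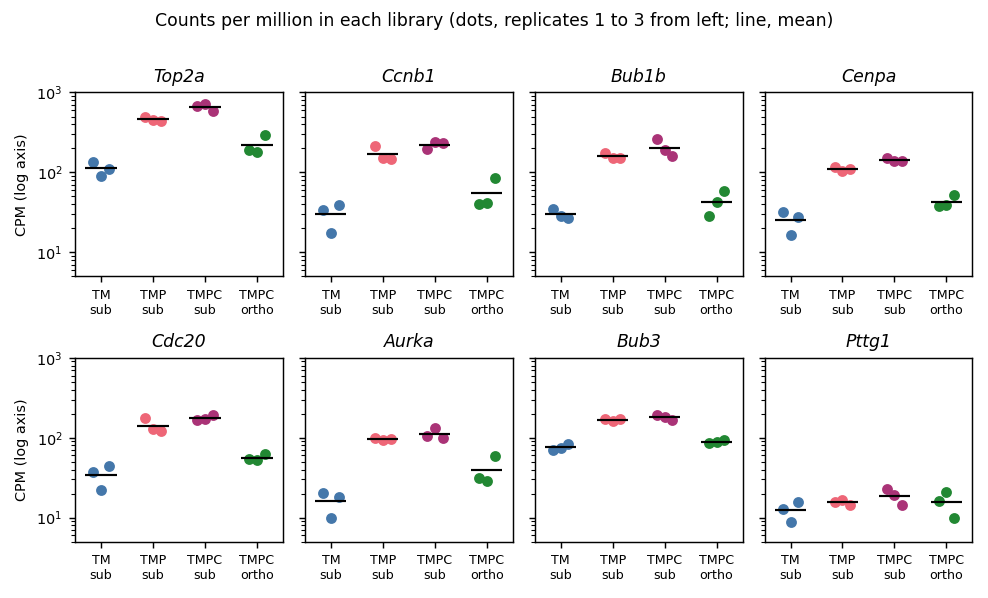
CPM on a log axis for 8 of the members in each library, with replicates 1 to 3 of a group from left to right and a line at the group mean. For 7 of these genes the TM and orthotopic TMPC points lie below all subcutaneous TMP and TMPC points, while the points of Pttg1 overlap in all 4 groups.

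The 4 genes of the chromosomal passenger complex, which corrects faulty attachments, rose in step. Incenp, its scaffold, had 40.4, 32.8 and 36.0 CPM in TM, 116, 109 and 95.9 CPM in TMP and 156, 151 and 138 CPM in TMPC tumours, with no overlap among the 3 groups. It rose by 1.52 ± 0.13 (adjusted p = 0.00128) and 1.97 ± 0.13 (adjusted p = 0.000537). Aurkb, the kinase of the complex, rose by 1.64 ± 0.19 (adjusted p = 0.00211) and 1.97 ± 0.19 (adjusted p = 0.000686). Birc5 (survivin) and Cdca8 (borealin), the other subunits, ranged from 13.2 to 23.5 CPM over the TM libraries and from 62.1 to 116 CPM over the other subcutaneous ones.

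All 9 genes of the centromere and kinetochore rose. Cenpa, the histone H3 variant that marks centromeres (chromosome 5, 30666777 to 30674830), had 31.7, 16.5 and 27.6 CPM in TM, 117, 104 and 109 CPM in TMP and 151, 141 and 138 CPM in TMPC tumours. None of the 3 groups overlapped another, and the fold changes against TM were 2.10 ± 0.21 (adjusted p = 0.00142) and 2.45 ± 0.21 (adjusted p = 0.000541). Cenpm, an inner kinetochore subunit, rose least of the group in TMP tumours, by 1.28 ± 0.27 (adjusted p = 0.0137), at 4.20, 3.60 and 5.86 CPM in TM and 13.0, 11.7 and 9.40 CPM in TMP. Cenpf, a large protein of the outer kinetochore, varied most among TM libraries, at 44.8, 10.8 and 31.8 CPM, and rose by 2.20 ± 0.41 in TMPC tumours (adjusted p = 0.00611). Without TMP replicate 1 the rises of Cenpf, Cenpm and Ndc80 in TMP tumours did not pass. The 4 genes of the Ndc80 complex, which grips spindle fibres, lay between 6.07 and 14.8 CPM over all TM libraries and between 21.3 and 39.1 CPM over all TMP libraries.

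Of the 4 genes that trigger anaphase, 3 rose and Pttg1 did not pass. Ube2c, the ubiquitin-conjugating enzyme that works with the anaphase-promoting complex, had 34.2, 19.1 and 38.7 CPM in TM, 168, 156 and 162 CPM in TMP and 185, 196 and 171 CPM in TMPC tumours. It rose by 2.37 ± 0.23 (adjusted p = 0.0014) and 2.54 ± 0.23 (adjusted p = 0.000609). Cdc20 stood at 37.8, 21.9 and 44.0 CPM in TM tumours and between 120.0 and 191 CPM in the 6 other subcutaneous libraries, and Espl1, separase, at 13.9 to 27.6 CPM against 71.2 to 121 CPM. Pttg1 (chromosome 11, 43420250 to 43426251) had 12.7, 8.81 and 15.6 CPM in TM, 15.9, 16.6 and 14.5 CPM in TMP and 22.8, 19.0 and 14.2 CPM in TMPC tumours. The groups overlapped. Its log2 fold changes were 0.31 ± 0.27 (adjusted p = 0.407) and 0.54 ± 0.27 (adjusted p = 0.143).

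All 7 spindle assembly genes rose. Aurka, a kinase of the spindle poles (chromosome 2, 172356190 to 172370535), had 20.4, 9.88 and 18.3 CPM in TM, 96.5 ± 3.28 CPM (mean ± SD, n = 3) in TMP and 104, 132 and 98.3 CPM in TMPC tumours, and rose by 2.55 ± 0.25 (adjusted p = 0.00142) and 2.74 ± 0.25 (adjusted p = 0.000645). Tubg1, gamma-tubulin, from which spindle fibres grow, had 21.4, 22.0 and 26.4 CPM in TM and 76.3, 72.1 and 77.9 CPM in TMP tumours. The groups were tight and far apart, with fold changes of 1.66 ± 0.14 (adjusted p = 0.00128) and 1.91 ± 0.14 (adjusted p = 0.000537). Plk1, a kinase of centrosome maturation and mitotic exit, spread widely in TM tumours, at 44.9, 14.1 and 37.1 CPM, and at 98.9, 92.6 and 83.0 CPM in TMP. It rose by 1.50 ± 0.34 (adjusted p = 0.0175) and 1.70 ± 0.34 (adjusted p = 0.00815). Without TMP replicate 1 or 2 the rise of Plk1 in TMP tumours did not pass. The spindle genes Tpx2, Nusap1, Hmmr and Aspm ranged from 10.3 to 37.0 CPM over the TM libraries and from 67.2 to 174 CPM over the TMP libraries.

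The 5 cytokinesis genes rose, with Anln the least certain. Cep55, which brings the abscission machinery to the midbody, had 19.5, 12.5 and 17.0 CPM in TM, 95.8, 91.5 and 81.9 CPM in TMP and 68.2, 124 and 125 CPM in TMPC tumours. It rose by 2.43 ± 0.26 (adjusted p = 0.00186) and 2.64 ± 0.27 (adjusted p = 0.000712). Racgap1, part of the centralspindlin complex that positions the cleavage furrow, stood at 49.7, 28.9 and 43.6 CPM in TM and 207, 215 and 189 CPM in TMPC tumours and rose there by 2.27 ± 0.21 (adjusted p = 0.000635). Anln, the actin-binding protein anillin of the contractile ring, had 44.3, 9.54 and 47.8 CPM in TM and 145, 105 and 101 CPM in TMP tumours, so that TM replicate 2 was far under the others. Its fold changes were 1.77 ± 0.50 (adjusted p = 0.0336) and 1.81 ± 0.50 (adjusted p = 0.0252). They did not pass when only the compared groups were fitted (adjusted p = 0.0708 and 0.0701), nor, in TMP against TM, without TM replicate 1, any 1 of the TMP replicates or subcutaneous TMPC replicate 2 or 3, nor, in TMPC against TM, without subcutaneous TMPC replicate 1 or 2. Prc1 and Ect2, which bundle and signal at the midzone, stood at 9.94 to 39.2 CPM in TM and 81.5 to 163 CPM in TMP tumours.

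Subcutaneous TMPC tumours had fitted levels somewhat above those of TMP tumours for every member, but no difference passed. By edgeR 0 members passed, as did 0.0% of all genes. At an unadjusted p under 0.05 there were 7 members and 465 of 15277 genes (3.04%), and DESeq2 called 17 genes, of which 1 was a member. The 465 became 190 without TMP replicate 3, 306 without TMP replicate 2, 1144 without TM replicate 2 and 1730 without TM replicate 2 and subcutaneous TMPC replicate 1. The median log2 fold change was 0.34 over the members and 0.01 over all genes. All 48 fitted fold changes were above 0, from 0.03 to 0.76, where 50.7% of all genes were. Anln turned to -0.01 without TMP replicate 2, -0.06 without TMP replicate 3 and -0.15 without subcutaneous TMPC replicate 1. Levels did not overlap for 28 members, with every TMPC library above every TMP library, against 7.14% of all genes.

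Spc24, a subunit of the Ndc80 complex (chromosome 9, 21755442 to 21760303), differed most, with 25.7, 21.3 and 23.0 CPM in TMP and 36.7, 41.4 and 42.6 CPM in TMPC libraries. The groups did not overlap, and the log2 fold change was 0.76 ± 0.20 (unadjusted p = 0.00442, edgeR adjusted p = 0.9999, DESeq2 adjusted p = 0.0272). Top2a differed by 0.48 ± 0.16 (unadjusted p = 0.0174) and Incenp by 0.44 ± 0.13 (unadjusted p = 0.00793), again without overlap and with an adjusted p of 0.9999. Ccnb2, cyclin B2, had 75.4, 53.1 and 68.4 CPM in TMP and 92.8, 85.1 and 95.5 CPM in TMPC tumours, a difference of 0.45 ± 0.23, while Racgap1 and Foxm1 differed by 0.40 ± 0.20 and 0.39 ± 0.20. These groups did not overlap either. Bub1b and Cdc20 overlapped between the groups, at 0.34 ± 0.19 and 0.29 ± 0.24. Tubg1 differed by 0.25 ± 0.13 without overlap.

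TMPC tumours grown in the stomach were compared with TMPC tumours grown under the skin to see how the mitotic genes differ between sites. Of the 48 members 46 fell in orthotopic tumours by edgeR's test, where 13.8% of the 15123 genes tested fell, and 0 rose. The median log2 fold change was -1.45 over the members, a level 2.73-fold lower, and 0.05 over all genes. For 43 members it was -1 or less, against 9.03% of all genes. Every orthotopic library lay below every subcutaneous library for 47 members, against 26.4% of all genes. The calls leaned on single libraries. Without orthotopic replicate 2, 9 members passed at a median of -1.34, and 387 genes in all, 2.51% of those tested, passed in either direction. Without orthotopic replicate 1, 32 members and 7.98% of all genes passed. Without orthotopic replicate 3, the library rich in hepatocyte markers, 47 members passed at a median of -1.74, and 30.6% of all genes did. The number of members thus moved with the share of all genes. The 9 members that passed in the main fit and in all 13 alternatives tried were Ncapd2, Ncaph, Cdk1, Cenpa, Cenpf, Cdc20, Aspm, Tubg1 and Racgap1. Beside the fall, the sums of the gastric epithelium markers and of the 6 epithelial markers stood higher in orthotopic libraries. The epithelial sum was 4037 to 7017 CPM against 969 to 3182 CPM. Of these markers Epcam overlapped between sites, at 485, 594 and 630 CPM in orthotopic and 117, 621 and 672 CPM in subcutaneous TMPC libraries. Skeletal muscle markers (5 genes) summed lower in orthotopic libraries, at 7.82 CPM or less against 21.6 CPM or more. Leukocyte markers stood at 219, 229 and 669 CPM in orthotopic replicates 1, 2 and 3, against 99.4 to 175 CPM in subcutaneous TMPC libraries. Fibroblast markers (6 genes) stood at 6625, 7362 and 18223 against 3641 to 5429 CPM. Endothelial markers (5 genes) stood at 252, 191 and 502 against 120.4 to 171 CPM. The upper end of each of these orthotopic ranges thus came from replicate 3 alone. The 5 genes listed for plasma cells summed to 743 to 1108 against 411 to 610.1 CPM. Of these sums Jchain made up only 0.543 to 9.82 against 0 to 0.155 CPM. Nearly all of each sum thus came from other genes of the list, and it cannot be read as plasma cells. The part of these cell types in the fall was not tested.

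The condensin I gene Ncapd2 (chromosome 6, 125168007 to 125191701) fell furthest. It had 328, 317 and 263 CPM in subcutaneous and 47.6, 53.3 and 73.8 CPM in orthotopic TMPC libraries, and its log2 fold change was -2.32 ± 0.22 (adjusted p = 0.00755), a level 5.20-fold lower. Smc4 fell by 1.29 ± 0.23 (adjusted p = 0.0146), from 302, 295 and 213 CPM to 91.3, 93.2 and 133 CPM. Top2a, at 189, 179 and 294 CPM in orthotopic libraries, lay wholly below its subcutaneous range of 587 to 708 CPM. Among the proliferation genes Mki67 fell by 1.23 ± 0.22 (adjusted p = 0.0141) and Depdc1a by 1.79 ± 0.28 (adjusted p = 0.0113). Mki67 had 177, 175 and 264 CPM in orthotopic libraries, far under its 488 to 525 CPM beneath the skin.

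Entry and checkpoint genes fell too. Ccnb1, at 40.0, 41.3 and 86.0 CPM in orthotopic libraries, fell by 1.93 ± 0.35 (adjusted p = 0.0146), and Cdk1, at 68.6, 55.0 and 79.6 CPM, fell by 1.39 ± 0.18 (adjusted p = 0.00911). Neither overlapped its subcutaneous range. Bub1b had 28.3, 42.2 and 57.8 CPM in orthotopic libraries and fell by 2.19 ± 0.32 (adjusted p = 0.0105). Bub1, at 16.2, 26.6 and 44.1 CPM, fell by 1.77 ± 0.39 (adjusted p = 0.022), and each of these checkpoint genes was lowest in replicate 1 and highest in replicate 3. Bub3 had 85.3, 88.0 and 92.8 CPM, the tightest orthotopic values of this group, and fell by 0.97 ± 0.13 (adjusted p = 0.00944). In the passenger complex Aurkb fell by 1.62 ± 0.22 (adjusted p = 0.00944) and Birc5 by 1.39 ± 0.25 (adjusted p = 0.0142).

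At the kinetochore, Cenpa fell by 1.67 ± 0.18 (adjusted p = 0.0078), from 151, 141 and 138 CPM to 38.2, 39.1 and 52.3 CPM. Cenpk fell by 1.77 ± 0.30 (adjusted p = 0.0134), Spc24 by 1.79 ± 0.33 (adjusted p = 0.0154) and Ndc80, which gives its name to the fibre-binding complex, by 1.28 ± 0.31 (adjusted p = 0.0284). Spc24 thus had both the largest difference between TMP and TMPC tumours and the largest fall between sites among the 9 kinetochore genes. Both comparisons use the subcutaneous TMPC libraries, so this likeness is partly built in. Cdc20 had the smallest p of all members, with 54.8, 52.3 and 62.4 CPM in orthotopic against 166, 169.6 and 191 CPM in subcutaneous libraries and a fold change of -1.58 ± 0.15 (adjusted p = 0.00738). Its partner Ube2c spread more, at 52.1, 63.7 and 119 CPM, yet stayed below its subcutaneous range of 171 to 196 CPM. Pttg1 did not pass, at 16.0, 20.8 and 9.91 CPM in orthotopic libraries and -0.21 ± 0.33 (adjusted p = 0.66). Its orthotopic replicate 3 was the lowest, whereas 44 other members were highest there, and without that library its fold change was 0.0082.

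Of the spindle genes Aspm, whose product holds spindle poles together, fell by 1.52 ± 0.20 (adjusted p = 0.0092). Tpx2, an activator of Aurora A and spindle nucleation factor, fell by 1.34 ± 0.32 (adjusted p = 0.0262), with 54.9, 54.6 and 106 CPM in orthotopic libraries. Plk1 was even across the orthotopic libraries at 51.0, 53.1 and 51.9 CPM, below its subcutaneous range of 96.5 to 121 CPM. In cytokinesis Racgap1 fell by 1.66 ± 0.16 (adjusted p = 0.00755), from 207, 215 and 189 CPM to 59.2, 54.7 and 71.9 CPM. Anln, at 155, 111 and 99.1 CPM in subcutaneous and 41.6, 49.2 and 85.5 CPM in orthotopic libraries, did not overlap but had an adjusted p of 0.0639 at -0.98 ± 0.33. It passed by DESeq2 and without orthotopic replicate 3.

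Orthotopic TMPC tumours lay between subcutaneous TM and TMP tumours in the summed level of these genes. TM and orthotopic libraries stand in separate tables whose counts of the shared subcutaneous TMPC libraries are equal, and the comparison is a description with no test. For 29 members all 3 orthotopic libraries lay above all 3 TM libraries (11.7% of all genes), for 0 below (12.9%) and 19 overlapped. The ratio of mean CPM, orthotopic to TM, had a median of 1.72 and ranged from 1.16 for Bub3 to 2.66 for Depdc1a. Without TM replicate 2 the median ratio was 1.46.

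The comparisons of TMP with TM and of orthotopic with subcutaneous TMPC tumours compare different libraries. All 48 members had a fold change above 0 in the first and below 0 in the second, as had 37.2% of the 14811 genes tested in both. Across the 48 members the fold changes were inversely related, with Pearson's r = -0.60 and Spearman's rho = -0.45. Across all 14811 genes the values were -0.67 and -0.71, so that the relation was no closer among the members. These are descriptions across genes, which are not independent and share their length, level and libraries. Pttg1 lay far from the others at 0.31 and -0.21, and Bub3 was next to it at 1.10 and -0.97. Aurka had 2.55 and -1.42 and Ube2c 2.37 and -1.17, while Ncapd2 had 2.12 and -2.32 and Spc24 1.62 and -1.79. These genes were picked from the plot after their values were seen, and the difference in size between the comparisons was not tested.

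**Figure D4:**
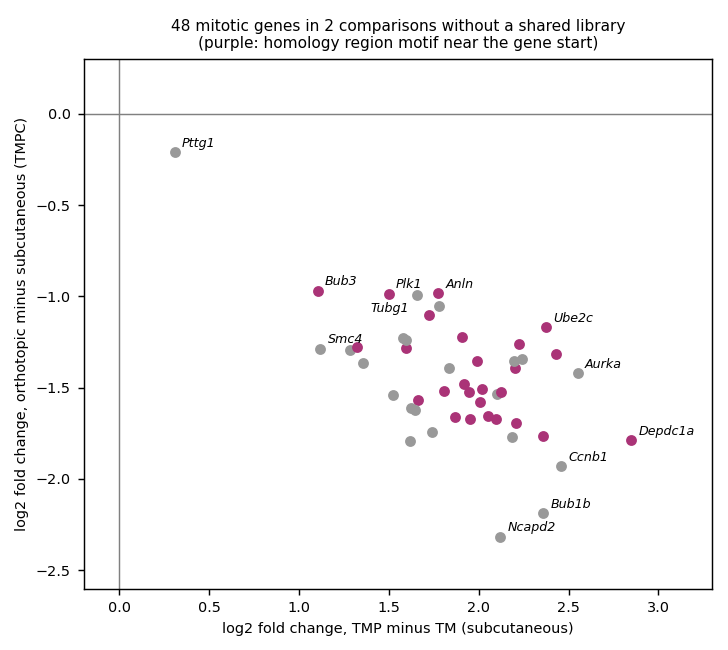
Each point is 1 of the 48 genes, with its log2 fold change in TMP minus TM on the horizontal axis and in orthotopic minus subcutaneous TMPC on the vertical axis; purple marks the 26 genes with TTTGAA or TTCGAA near the RefSeq start and grey the others, 8 of which have no promoter window in the table. All points lie right of and below 0, Pttg1 nearest to 0 on each axis, and purple and grey points are mixed.

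Subunits of 1 complex were not at equal RNA levels per length, and the order changed between groups in condensin. Per kilobase of exon in TM tumours Smc4 stood at 16.3 ± 3.06 CPM, Smc2 and Ncapd2 at 7.61 ± 0.796 and 7.61 ± 2.25, Ncaph at 4.33 ± 1.36 and Ncapg at 1.96 ± 0.468 (SD, n = 3). In subcutaneous TMPC tumours Ncapd2 reached 48.3 ± 5.58, near Smc4 at 51.8 ± 9.45 and above Smc2 at 31.5 ± 2.38. In orthotopic TMPC tumours Ncapd2 stood at 9.29 ± 2.20, below Smc2 at 12.4 ± 2.63 and Smc4 at 20.3 ± 4.54, though the ranges of mean ± SD of Ncapd2 and Smc2 overlapped. Ncapd2 ranked 12 of 48 in TM, 9 in subcutaneous TMPC and 21 in orthotopic TMPC tumours. In the Ndc80 complex Spc24 and Spc25 stood at 2.87 ± 0.479 and 2.89 ± 0.543 in TM tumours, 9.07 ± 0.879 and 9.75 ± 0.997 in TMP tumours and 15.6 ± 1.22 and 11.8 ± 1.39 in subcutaneous TMPC tumours. Ndc80 and Nuf2, the other arm of the complex, were lower in each group, at 6.97 ± 0.298 and 8.34 ± 1.07 in subcutaneous TMPC tumours. In the passenger complex Incenp was highest in every group and Cdca8 lowest. The order within a complex rests on exon lengths of the annotation and was not tested.

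**Figure D5:**
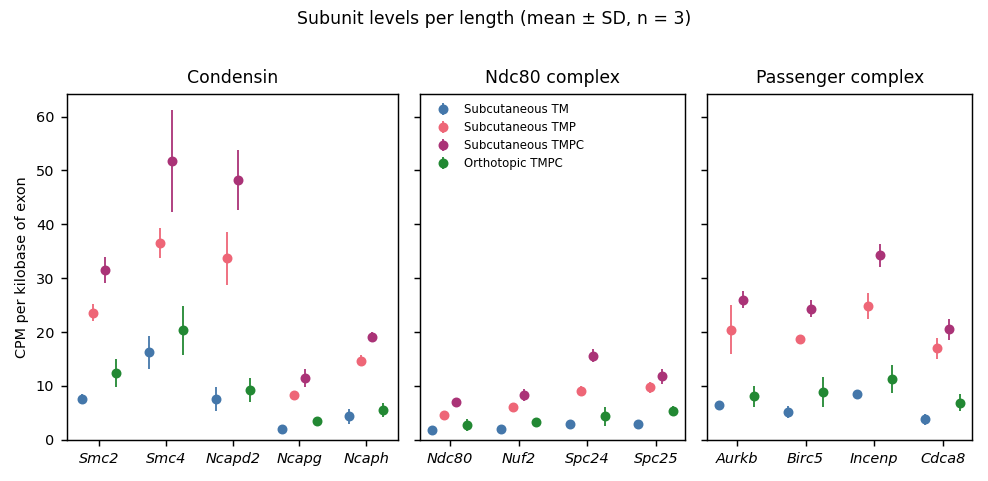
CPM per kilobase of exon (vertical axis, mean ± SD of 3 libraries) for the subunits of condensin, the Ndc80 complex and the passenger complex in the 4 groups. Every subunit is highest in subcutaneous TMPC tumours, and Ncapd2 falls from near the level of Smc4 there to under that of Smc2 in orthotopic tumours.

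Other genes of mitosis were read from lists chosen by function, likewise with earlier results of these data known. Of all genes tested 14.3% rose in TMP and 18.0% in TMPC tumours, and 13.8% fell between sites. All 12 mitotic kinesins rose in TMP and in TMPC tumours, with medians of 1.89 and 2.24, and 11 of them fell in orthotopic tumours (median -1.54). Kif11, the motor that separates spindle poles, rose by 2.19 ± 0.21 (adjusted p = 0.00142) and 2.72 ± 0.21 (adjusted p = 0.00054) and fell by 1.97 ± 0.19 between sites (adjusted p = 0.00755). Of 16 further checkpoint and outer kinetochore genes 14 rose in each comparison with TM and 13 fell between sites. Casc5, the Knl1 scaffold on which Bub proteins dock, rose by 2.42 ± 0.24 (adjusted p = 0.00142) and 2.55 ± 0.24 (adjusted p = 0.000646). Of 16 inner centromere genes 10 and 13 rose and 9 fell, among them Cenpw, with 2.11 ± 0.24 (adjusted p = 0.00196), 2.74 ± 0.24 (adjusted p = 0.000601) and -1.62 ± 0.27 (adjusted p = 0.0127). The 12 other kinases and phosphatases of mitotic entry and exit rose in 8 and 9 cases and fell in 9.

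Of 15 subunits and activators of the anaphase-promoting complex 7 rose in TMP and 10 in TMPC tumours, with medians of 0.49 and 0.66, and 6 fell between sites (median -0.46). Fzr1, the activator Cdh1 used after anaphase, rose by 0.76 ± 0.15 (adjusted p = 0.0101) and 0.99 ± 0.15 (adjusted p = 0.00259). Of 14 cohesin genes 7 rose and 1 fell in TMP tumours, 8 rose and 1 fell in TMPC tumours, and 8 fell between sites. The cohesin protectors Cdca5 (sororin) and Sgol1 (shugoshin) led the rises, by 1.82 ± 0.16 (adjusted p = 0.00128) and 1.88 ± 0.26 (adjusted p = 0.00337) in TMP tumours. Of the 3 genes particular to condensin II, 2 rose in TMP, 3 in TMPC and 2 fell between sites. Its subunit Ncapd3, the counterpart of Ncapd2, rose by 1.10 ± 0.17 (adjusted p = 0.00445) and fell by 1.24 ± 0.22 (adjusted p = 0.0146). Of 15 gamma-tubulin ring and augmin genes 5 and 8 rose and 5 fell. The shares of all genes beside these lists were 14.3% and 18.0% for rises and 13.8% for falls between sites.

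Among 11 DREAM and MuvB regulators 5 rose and 2 fell in TMP tumours, 5 rose and 1 fell in TMPC tumours, and 6 fell between sites. Of all genes 14.3% rose in TMP and 18.0% in TMPC tumours, and 13.8% fell between sites. Mybl2, B-Myb, which with MuvB activates mitotic genes, rose by 2.65 ± 0.26 (adjusted p = 0.00142) and 2.79 ± 0.26 (adjusted p = 0.000646). Lin9, a MuvB subunit, rose by 1.70 ± 0.16 in each (adjusted p = 0.00133 and 0.000635). The 13 replication licensing genes all rose in TMP and TMPC tumours, with medians of 1.37 and 1.76, and 12 fell between sites (median -1.37). Orc1, of the origin recognition complex, rose by 1.95 ± 0.22 in TMP tumours (adjusted p = 0.00195), and Cdc45, a helicase activator, fell by 1.73 ± 0.23 between sites (adjusted p = 0.00943). The S phase genes thus moved in the same directions as the mitotic members. Between TMPC and TMP tumours 0 genes of these 10 lists passed.

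Some members have uncertain counts because a strand setting is not given in the sources used here. Ube2c shares 592 bases of exon, 22.8% of its exon length, with Tnnc2 on the other strand, a muscle gene at 0 to 14.3 CPM in these libraries, against 19.1 to 196 CPM of Ube2c. Ncapg shares 13.4% of its exon length with Lcorl, Ccna2 12.5% with Exosc9 and Prc1 11.1% with Rccd1, each on the opposite strand. Exosc9 stood at 18.4 to 22.3 CPM in TM and 34.8 to 50.7 CPM in TMP libraries. It had 40.0 to 58.1 CPM in subcutaneous and 23.4 to 25.2 CPM in orthotopic TMPC libraries. Exosc9 was thus low and high in the same groups as Ccna2, though below it in each library, and its part in the count of Ccna2 was not tested. Lcorl stood at 19.8 to 33.8 CPM in subcutaneous libraries, where Ncapg ranged from 11.1 to 92.5 CPM. In orthotopic libraries Lcorl had 44.6, 37.3 and 28.9 CPM and Ncapg 20.8, 21.4 and 31.2 CPM, so that Lcorl was the higher in replicates 1 and 2. Tubg1 shares 3.23% of its 100-base runs with Tubg2, which stood at 1.66 to 5.42 CPM.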

How the data were processed

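Raw counts per gene and normalised signal for 12 bulk libraries were deposited by the authors in a subcutaneous table of 9 libraries and a site table of 6, which share the subcutaneous TMPC libraries with equal counts. Per the submitters' processing notes, STAR 2.6.0, mm10 and DESeq2 were used. For the read counter, annotation and strand setting: not given in the sources used here. Per the labels, libraries were read with paired ends of 150 bases. In the subcutaneous table the symbol column did not match the counts from entry 12291 of 24421 onwards, which touched 20 members. Symbols were taken by position from the other table, after which the deposited signal, counts divided by a factor per library, matched the counts within 0.01 reads for all 24417 symbols checked, and the signal was used for nothing else.

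Tests used edgeR 4.0.16 in R 4.3.3 (filterByExpr, TMM, quasi-likelihood F test, Benjamini-Hochberg threshold 0.05 over all genes tested), with 1 fit over the 9 subcutaneous libraries and another over the 6 TMPC libraries. DESeq2 1.42.0 was an alternative, beside other scaling factors, no filter, a replicate block, other sets of libraries in the fit and leaving out each library. The procedure was also run on simulated data. No simulated library stood apart from its group, so that run does not cover the libraries that did so here. With 3 libraries against 3, an exact permutation test of 1 value cannot go below a two-sided p of 0.1, so none is given. At these depths 3 counts equal 0.142 to 0.181 CPM. Exon lengths came from GENCODE vM21 and promoters from RefSeq (GRCm38.p6).

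The members and lists were chosen with earlier results of these data known. Genes are named with a test by rule: per role group the smallest and largest unadjusted p, plus the 6 largest fold changes, or, where fewer than 5 members pass, only the smallest p per role group. Of each other list up to 2 genes with the smallest p are named.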

Additional observations from a re-analysis of the deposited data

How the results depend on the processing

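Under DESeq2 size factors, upper-quartile factors, no filter and a fit of all 12 libraries, no member's call changed. DESeq2's own test called 1 member and 17 genes in TMPC against TMP, where edgeR called 0, and 6372 genes between sites, against 4204. Leaving out 1 library at a time, the members that passed ranged from 42 to 47 in TMP against TM, 46 to 47 in TMPC against TM, 0 to 0 in TMPC against TMP and 9 to 47 between sites. The genes that passed ranged from 1550 (without TMP replicate 1) to 4885, against 4239, from 3414 (without subcutaneous TMPC replicate 2) to 6390, against 5469, 0 to 0, and from 387 (without orthotopic replicate 2) to 4789. The members' medians ranged from 1.69 to 2.12, 2.07 to 2.48, 0.32 to 0.41 and -1.74 to -1.34. With only the compared groups fitted, 3536 genes passed in TMPC against TM. Without TM replicate 2 and subcutaneous TMPC replicate 1, an alternative chosen after seeing the data, 6400 genes passed in TMP against TM and 7271 in TMPC against TM. Without subcutaneous TMPC replicate 1 and orthotopic replicate 3, chosen likewise, 6267 genes passed between sites and the site median was -1.74. The site fold change of Pttg1 turned to 0.16 there and to 0.0082 without orthotopic replicate 3 alone, and was -0.48 without orthotopic replicate 2. Deviations of same-numbered libraries from their group means had correlations of -0.224 to 0.274 among subcutaneous pairs and -0.0712 to 0.0666 between sites. With 3 libraries per group, and without differently numbered pairs beside them, these cannot decide whether the numbers pair samples. With a replicate block 37 members and 1777 genes passed between sites. The cause of these changes was not tested.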
